A study of Mus musculus with 15 samples.

Results

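Autophagy and mitophagy genes of erythroid cells were followed across cells carrying wild type or mutant GATA1, the transcription factor that drives red cell maturation. There were 10 listed genes: Bnip3, Bnip3l, Calcoco1, Ulk1, Map1lc3b, Gabarapl1, Gabarapl2, Optn, Sqstm1 and Foxo3. A gene was measured by a probe set, a group of array probes summarised into 1 value, annotated to that symbol alone. Where a gene had several, the one with the highest mean was taken. Over the 15 arrays this gave 9 measured genes of 19933 in all. Optn, a receptor that links ubiquitin-tagged cargo to autophagosomes, had no such probe set and was not analysed here.

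The arrays came from G1E cells, a mouse immature erythroid line that lacks GATA1. Each of 5 lines carried GATA1-ER, in which GATA1 is joined to an estrogen receptor domain that estradiol switches on. The GATA1 was wild type in 1 line and had the change R216Q, R216W, D218G or D218Y in the others. All lines had 24 hours in 100 nM estradiol, and each had 3 biological replicates. Both mutated positions are in GATA1's amino-terminal zinc finger. All lines thus share the missing endogenous GATA1, the fusion domain and the estradiol, uninduced cells were not analysed here, and no source used here says whether a line was a clone or a pool.

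Autophagy encloses cytoplasm in a double membrane that fuses with lysosomes. ULK1 kinase starts the process, small ATG8 proteins (the LC3 and GABARAP families, joined to lipid) coat the membrane, and receptors such as p62 hook cargo to them. Maturing red cells use it to clear mitochondria, for which BNIP3L (NIX), a receptor in the outer mitochondrial membrane, is known to be needed, and FOXO3 is known to work with GATA1 on autophagy genes in erythroid cells.

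The values were log2 RMA values, between 2.89 and 13.58 over all probe sets, with array medians between 6.24 and 6.41. The median SD of a gene within a line was 0.08 in D218G and 0.05 or 0.06 in the others. Replicate 3 of D218G had the lowest array median of its line (6.25 against a highest of 6.40), and results on D218G were also computed without it. The D218Y array medians, 6.24 to 6.29, all lay below those of wild type, R216Q and R216W (6.31 to 6.41). Over all genes the median difference of D218Y from wild type was -0.07, or -0.02 after quantile and -0.00 after cyclic loess normalization. Gata1 transcript was at 12.36 in wild type and 12.35 in D218G, and was lower in R216Q (12.15), R216W (12.25) and D218Y (12.07, limma adjusted p = 1.12e-06). Whether its probe set reads the introduced construct is not known here. Of 8 measured red cell markers, none lay below the median gene in any line, and their mean level ran from 11.18 to 11.22 in wild type arrays, from 10.55 to 10.83 in the R216Q, R216W and D218G arrays and from 9.05 to 9.11 in D218Y arrays. Of 8 granulocyte and monocyte markers and 6 lymphoid markers, all lay below the median gene in every line. Mast cell markers, of which 5 of 7 lay below the median gene in D218Y and 6 of 7 elsewhere, averaged 5.60 to 5.64 in D218Y arrays and at most 5.15 elsewhere. Of these 7, 3 (Cpa3, Ms4a2 and Hdc) passed as higher in D218Y than in wild type by limma, where 20.3% of all genes did. The others did not pass. Megakaryocyte markers, 3 of 6 of them below the median gene in each line, averaged 6.97 to 7.04 in wild type and 6.10 to 6.11 in D218Y arrays. All R216Q, R216W and D218G arrays lay between these ranges, so this average was below wild type in every mutant line. The highest and lowest line means were 2.82 apart for Tubb1, 1.93 for Gp9 and 0.42 for Itga2b. For Pf4, Vwf and Ppbp they were at most 0.19 apart. The part of these marker levels in the results below was not tested, and in bulk RNA fewer cells of a type and less RNA per cell cannot be told apart.

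Bnip3, which marks mitochondria for engulfment and is a well known target of low oxygen signals, rose in 3 of the 4 mutant lines. Of the other 8 genes Sqstm1, in R216W, was the one that passed as higher than wild type in any line. D218Y had the largest falls, in Calcoco1, Map1lc3b and Gabarapl2. In an F test across lines (limma, Benjamini-Hochberg adjustment over all genes) all 9 measured genes passed (adjusted p from 3.76e-10 for Calcoco1 to 0.0322 for Gabarapl1), and 41.9% of all genes did so. The 9 genes were chosen with earlier results of these data known and are brighter than most genes, so these shares do not compare like genes. At an adjusted p under 0.01, with the replicate number as a block or without some single arrays, 8 of the 9 passed. The share of all genes under these settings is not given here. The span between the highest and lowest line mean was 1.43 (log2) for Bnip3, 1.10 for Calcoco1, 0.69 for Map1lc3b, 0.57 for Gabarapl2, 0.50 for Sqstm1, 0.38 for Ulk1, 0.29 for Bnip3l, 0.25 for Foxo3 and 0.15 for Gabarapl1.

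**Figure D1:**
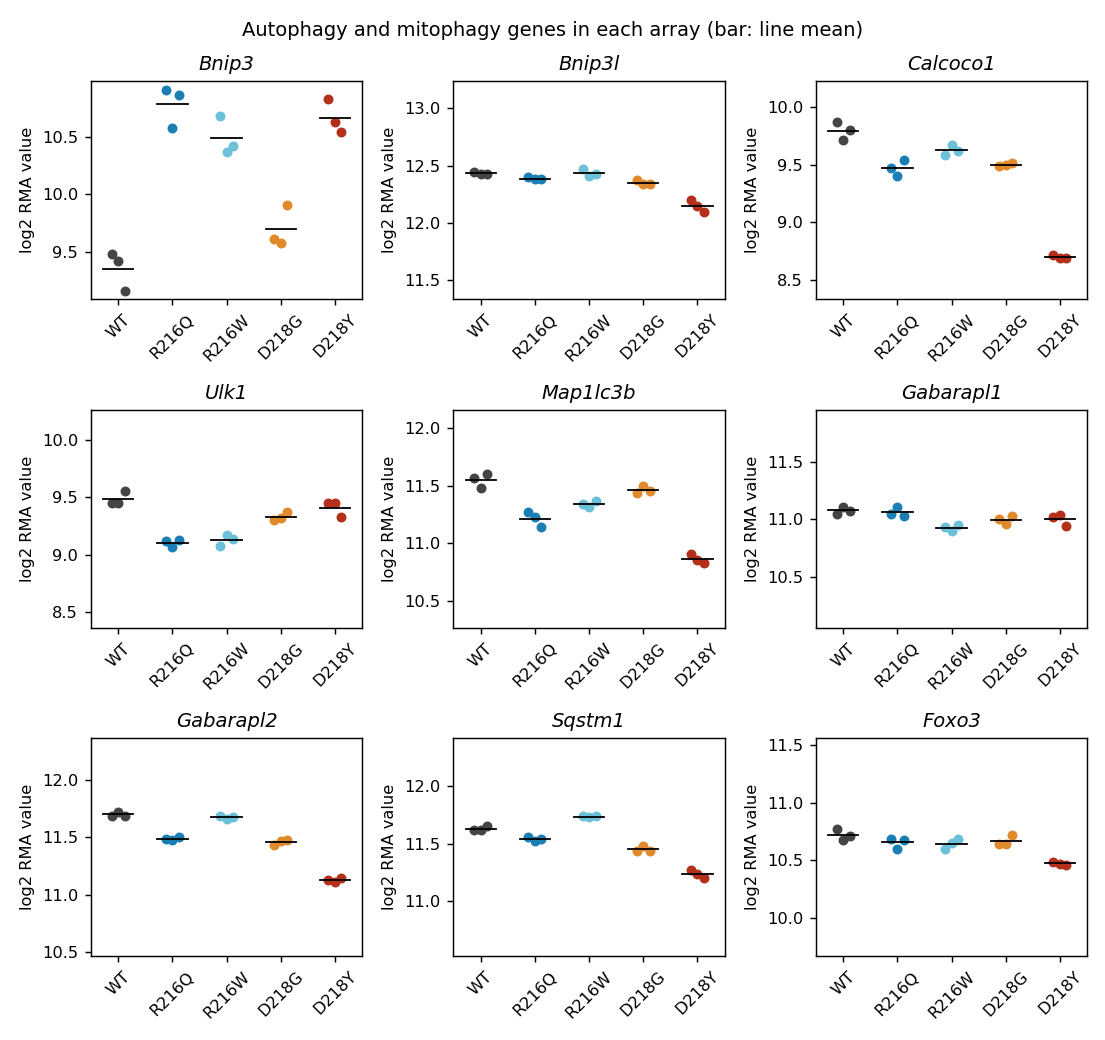
Log2 RMA value of each of the 9 genes in each array, with 1 point per array, 3 arrays per line and a bar at the line mean; every panel covers the same height on the log2 axis. Bnip3 lies between 10.37 and 10.91 in R216Q, R216W and D218Y, between 9.58 and 9.91 in D218G and between 9.16 and 9.48 in wild type. Calcoco1, Map1lc3b and Gabarapl2 are lowest in D218Y.

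Among the receptors on mitochondria, Bnip3 read 9.48, 9.42 and 9.16 in wild type arrays and 9.61, 9.58 and 9.91 in D218G arrays. It read 10.91, 10.58 and 10.86 in R216Q, 10.68, 10.37 and 10.42 in R216W, and 10.83, 10.63 and 10.54 in D218Y. These 3 lines overlapped each other, and none overlapped wild type or D218G. The D218G arrays in turn lay above all wild type arrays. Bnip3 was 2.7-fold higher than wild type in R216Q (log2 difference 1.43 ± 0.12 SE, n = 3 arrays a line, limma adjusted p = 5.41e-07), 2.2-fold in R216W (1.13 ± 0.12) and 2.48-fold in D218Y (1.31 ± 0.12, adjusted p = 3.12e-07). In D218G it was at 0.34 ± 0.12 (95% interval 0.09 to 0.60, limma adjusted p = 0.0655). This value was 0.24 (adjusted p = 0.232) without replicate 3 of D218G, and its adjusted p ran from 0.0362 to 0.269 over the alternatives. D218G lay below R216W by 0.79 ± 0.12 (adjusted p = 1.55e-04) and below R216Q by 1.09 ± 0.12. Between the 3 high lines no difference passed: R216W minus R216Q was -0.30 (95% interval -0.56 to -0.04, limma adjusted p = 0.127, or 0.0489 to 0.369 over the alternatives), D218Y minus R216Q was -0.12 (-0.38 to 0.14) and D218Y minus R216W was 0.18 (-0.08 to 0.44).

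The stretch before the Bnip3 start site is shown because Bnip3 had the widest span of line means, beside that of Calcoco1, which had the next widest and moved the other way. Both are RefSeq promoter sequence, 250 bases ending at the base before the annotated start, 5′ to 3′ on the gene's strand, build GRCm38.p6; the probe sets' own positions were not used. Capitals mark ACGTG on either strand, a form of the core of the site bound by hypoxia-inducible factors. The other form, GCGTG, was not searched for, and it stands unmarked in both windows, in Calcoco1 as its reverse complement.
Bnip3, chr7:138909507-138909756, minus strand: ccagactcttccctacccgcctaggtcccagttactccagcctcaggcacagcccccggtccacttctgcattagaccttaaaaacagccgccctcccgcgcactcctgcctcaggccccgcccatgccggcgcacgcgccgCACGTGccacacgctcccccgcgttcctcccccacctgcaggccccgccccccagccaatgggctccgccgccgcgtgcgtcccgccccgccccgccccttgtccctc
Calcoco1, chr15:102722179-102722428, minus strand: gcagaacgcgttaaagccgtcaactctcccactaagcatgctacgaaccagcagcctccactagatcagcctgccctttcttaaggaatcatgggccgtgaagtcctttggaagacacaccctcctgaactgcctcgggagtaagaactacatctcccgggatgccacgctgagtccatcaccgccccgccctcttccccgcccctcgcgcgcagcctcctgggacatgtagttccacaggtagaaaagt
In the Bnip3 window ACGTG occurred on both strands in an overlapping palindrome, starting 107 bases before the start site on the sense strand and 108 on the other. Of 32851 RefSeq promoter windows of this length 16.6% held ACGTG, and among the 9 listed genes with a window (Optn included) the others had 1 such gene, Gabarapl2. Bnip3l had no window, and its promoter was not searched. None of the 9 windows held the GATA sequences AGATAA (9.99% of all windows) or TGATAA (7.94%), or the forkhead sequence GTAAACA (3.17%), each searched on both strands. Other forms of these sequences were not searched for, and the Gabarapl1 window holds ATAAACA, a variant of the forkhead sequence. The Bnip3 window had a GC content of 72.4% and 24 CG dinucleotides, against 57.6% and 14 for Calcoco1. A match here is a description of letters in this window and no measure of binding. Sites of other transcription factors can also hold ACGTG, so a match does not single out a factor.

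Bnip3l, the receptor needed for mitochondrial clearance in reticulocytes, changed far less than its relative Bnip3. Its wild type arrays read 12.44, 12.43 and 12.43, the R216Q arrays 12.40, 12.38 and 12.38, and the R216W arrays 12.47, 12.41 and 12.43. The D218G arrays read 12.37, 12.34 and 12.34, and the D218Y arrays 12.20, 12.15 and 12.10. D218Y lay apart from all other lines, and Bnip3l fell there by 0.28 ± 0.03 against wild type (1.21-fold, limma adjusted p = 5.94e-06). Differences from wild type were -0.04 in R216Q (95% interval -0.12 to 0.03), 0.01 in R216W (-0.07 to 0.08) and -0.08 in D218G (-0.15 to -0.01), none past the threshold in limma. The D218G value passed when genes above the median intensity alone were tested or with a trend in eBayes (adjusted p from 0.0103 to 0.349 over the alternatives). In D218Y the pair thus moved in opposite directions, Bnip3 up by 1.31 and Bnip3l down by 0.28, on the log2 scale.

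Ulk1, the kinase that starts autophagosome formation, was lower in both R216 lines and near wild type in D218Y. Wild type arrays read 9.45, 9.45 and 9.56, R216Q arrays 9.12, 9.07 and 9.13, and R216W arrays 9.08, 9.17 and 9.14. D218G arrays read 9.30, 9.32 and 9.37, and D218Y arrays 9.45, 9.45 and 9.33, which overlapped wild type. Ulk1 fell by 0.38 ± 0.05 in R216Q (1.3-fold, limma adjusted p = 2.03e-05) and by 0.36 ± 0.05 in R216W (1.28-fold, adjusted p = 5.36e-05), and the R216 lines did not differ past the threshold (R216W minus R216Q 0.02, 95% interval -0.08 to 0.12). In D218Y the difference was -0.08 ± 0.05 (limma adjusted p = 0.186), which became -0.15 and passed after quantile normalization (adjusted p = 0.00792) and -0.11 after cyclic loess (adjusted p = 0.0413). D218Y exceeded R216Q by 0.30 ± 0.05 and R216W by 0.28 ± 0.05 (limma adjusted p = 1.08e-04 and 1.63e-04). In D218G Ulk1 fell by 0.16 ± 0.05 (limma adjusted p = 0.0275), a call lost without replicate 3 of wild type, replicate 1 or replicate 2 of D218G (adjusted p = 0.131, 0.1 and 0.0733) and with the arrays of these lines alone (0.123). Of the 9 genes Ulk1 was the one whose D218Y mean lay nearer to wild type than the means of the other 3 mutant lines. Against D218G this order did not pass: D218Y minus D218G was 0.08 ± 0.05 (limma adjusted p = 0.212), or 0.01 to 0.12 over the alternatives.

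The transcripts of 3 ATG8 proteins differed in the size of their change, and none was higher than wild type past the threshold in any line. Map1lc3b, the LC3B protein used as the standard marker of autophagosomes, read 11.57, 11.48 and 11.60 in wild type, 11.44, 11.50 and 11.46 in D218G, and 11.34, 11.32 and 11.37 in R216W. It read 11.27, 11.23 and 11.14 in R216Q and 10.91, 10.86 and 10.83 in D218Y. D218G overlapped wild type, and the other 3 lines lay below it without overlap. Map1lc3b fell by 0.69 ± 0.04 in D218Y (1.61-fold, limma adjusted p = 6.55e-09), by 0.34 ± 0.04 in R216Q and by 0.21 ± 0.04 in R216W, and was at -0.09 ± 0.04 in D218G (limma adjusted p = 0.241). D218Y lay below the next lowest line, R216Q, by 0.34 ± 0.04 (limma adjusted p = 2.12e-05), whereas the neighbours D218G and R216W (0.12, adjusted p = 0.0659) and R216W and R216Q (0.13, adjusted p = 0.0591, or 0.00914 to 0.255 over the alternatives) did not pass.

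Gabarapl2 (GATE-16), of the GABARAP branch that acts in autophagosome closure and fusion, split the R216 lines. It read 11.69, 11.72 and 11.69 in wild type and 11.69, 11.66 and 11.68 in R216W, but 11.49, 11.48 and 11.50 in R216Q. The D218G arrays were at 11.43, 11.47 and 11.48 and the D218Y arrays at 11.13, 11.11 and 11.15. Gabarapl2 fell by 0.21 ± 0.03 in R216Q, 0.24 ± 0.03 in D218G and 0.57 ± 0.03 in D218Y (1.49-fold, limma adjusted p = 9.02e-10). In R216W it was at -0.02 (95% interval -0.09 to 0.04), and R216W exceeded R216Q by 0.19 ± 0.03 (limma adjusted p = 4.57e-04).

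The values for Gabarapl2 rest on the probe set chosen. Its other probe set was dim (mean 6.14 against 11.49) and tracked the first at r = 0.642 over the 15 arrays. There the difference from wild type was -0.41 ± 0.16 in R216Q (limma adjusted p = 0.102), -0.52 ± 0.16 in D218G and -0.50 ± 0.16 in D218Y, and D218Y minus D218G was 0.02 (adjusted p = 0.95) in place of -0.33. The other 3 genes with a pair of probe sets gave nearly the same values from both. Bnip3 was at 1.38, 1.14, 0.26 and 1.26 in R216Q, R216W, D218G and D218Y by its second probe set (r = 0.994 with the first), and Map1lc3b at -0.33, -0.19, -0.10 and -0.69 (r = 0.998). Where in the genome each probe set lies, and whether any reads a near-identical copy of its gene, was not determined here, so these 4 genes are uncertain in that respect.

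**Figure D2:**
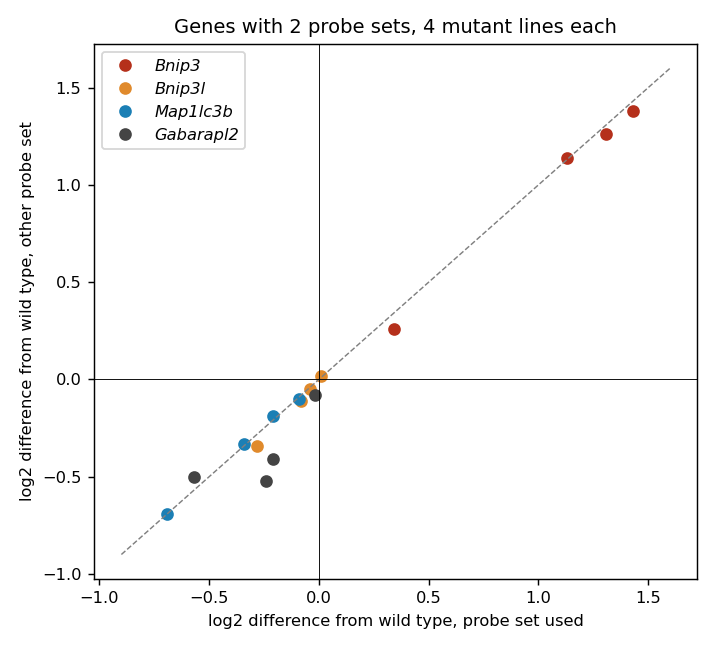
Log2 difference from wild type by the probe set used (horizontal axis) and by the other probe set (vertical axis) for the 4 genes that had 2, with 1 point per mutant line and a dashed line of equality. Bnip3, Bnip3l and Map1lc3b lie along the line, while Gabarapl2 departs from it, with -0.24 against -0.52 in D218G.

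Gabarapl1, a close relative of Gabarapl2, had the smallest span of line means of the 9 genes. Wild type arrays were at 11.05, 11.11 and 11.07, R216Q arrays at 11.05, 11.11 and 11.03, and R216W arrays at 10.93, 10.90 and 10.95. D218G arrays lay between 10.96 and 11.03, and D218Y arrays were at 11.02, 11.04 and 10.94. R216Q overlapped wild type, and R216W lay lowest. It was lower in R216W by 0.15 ± 0.04 (limma adjusted p = 0.0141), a call lost without replicate 2 of wild type or replicate 2 of R216W (adjusted p = 0.0534 and 0.0621; the range over all alternatives was 0.00101 to 0.0621). In the other lines the difference lay between -0.08 and -0.01, and in D218Y the 95% interval was -0.16 to 0.01, above the intervals of Gabarapl2 (-0.64 to -0.51) and Map1lc3b (-0.78 to -0.59).

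Among the cargo receptors Calcoco1, which takes part in turnover of the endoplasmic reticulum, was below wild type in each mutant line. Wild type arrays read 9.87, 9.72 and 9.80, R216W arrays 9.59, 9.67 and 9.62, and R216Q arrays 9.47, 9.40 and 9.54. D218G arrays read 9.49, 9.50 and 9.52, and D218Y arrays 8.72, 8.69 and 8.69. No array of a mutant line reached the lowest wild type array, and the D218Y arrays lay far below the rest. Calcoco1 fell by 1.10 ± 0.05 in D218Y (2.14-fold, limma adjusted p = 4.65e-11), by 0.33 ± 0.05 in R216Q and by 0.29 ± 0.05 in D218G. The fall of 0.17 ± 0.05 in R216W (limma adjusted p = 0.016) was lost without replicate 1 of wild type or replicate 1 of R216W (adjusted p = 0.0892 and 0.069) and with these lines' arrays alone (0.0546). D218Y lay 0.80 ± 0.05 below D218G, the other change at the same residue (limma adjusted p = 3.14e-09).

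Sqstm1, the gene of p62, which binds ubiquitin-tagged cargo, differed in direction between mutants. It read 11.62, 11.62 and 11.65 in wild type, 11.56, 11.52 and 11.54 in R216Q, and 11.74, 11.73 and 11.74 in R216W. D218G arrays were at 11.44, 11.48 and 11.44 and D218Y arrays at 11.27, 11.24 and 11.20, so that no pair of lines overlapped. Sqstm1 fell by 0.39 ± 0.03 in D218Y (1.31-fold, limma adjusted p = 9.02e-08) and by 0.18 ± 0.03 in D218G, and was at -0.09 ± 0.03 in R216Q (limma adjusted p = 0.065). Its rise of 0.10 ± 0.03 in R216W (limma adjusted p = 0.0371) was lost when any single array of wild type or R216W was left out (adjusted p from 0.052 to 0.106). The difference between R216W and D218G was 0.28 on the log2 scale, with D218G lower (limma adjusted p = 8.47e-06), and R216W exceeded R216Q by 0.19 ± 0.03 (adjusted p = 4.82e-04).

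Foxo3, the transcription factor, passed as lower than wild type in D218Y. Wild type arrays read 10.77, 10.68 and 10.71, R216Q arrays 10.69, 10.60 and 10.68, and R216W arrays 10.60, 10.65 and 10.69. D218G arrays read 10.64, 10.64 and 10.72, and D218Y arrays 10.49, 10.47 and 10.46. The first 4 lines overlapped in their values, and D218Y lay below all of them. Foxo3 fell by 0.25 ± 0.04 in D218Y (1.19-fold, limma adjusted p = 1.19e-04). The difference was -0.07 in R216Q (95% interval -0.15 to 0.02), -0.07 in R216W (-0.16 to 0.01) and -0.05 in D218G (-0.14 to 0.03). D218Y also lay below each other mutant line, by 0.18 to 0.19, with adjusted p of 0.00244 against R216Q, 0.00255 against R216W and 0.00143 against D218G.

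**Figure D3:**
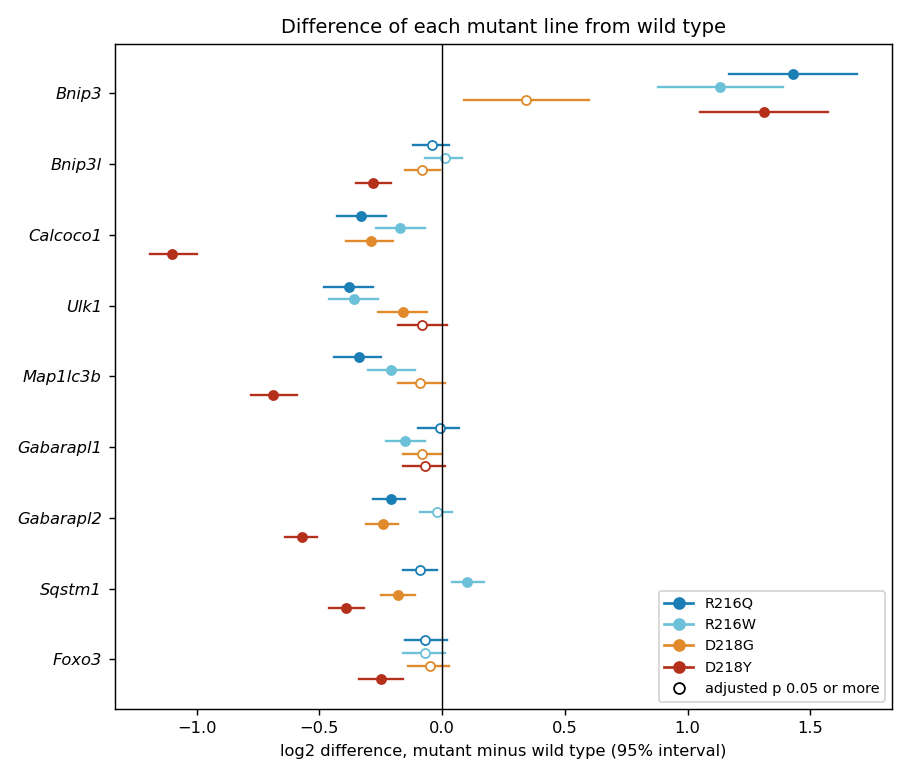
Log2 difference of each mutant line from wild type for the 9 genes, with 95% intervals from limma; filled points passed limma's test at 0.05 after adjustment. Bnip3 lies right of 0, at 0.34 to 1.43, and 6 of the other 8 genes lie left of 0 with filled points in D218Y.

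Counted by line, with the wild type arrays shared by all these comparisons, 5 of the 9 measured genes differed from wild type in R216Q (1 higher, 4 lower), where 21.5% of all genes did (11.8% higher, 9.65% lower). In R216W 6 differed (2 higher, 4 lower), where 16.6% of all genes did (9.36% higher, 7.23% lower), or 3 at an adjusted p under 0.01. In D218G 4 were lower by limma with Benjamini-Hochberg adjustment, where 18.1% of all genes differed (10.3% higher, 7.77% lower), and 4 passed without replicate 3 too. In D218Y 7 differed (1 higher, 6 lower), where 44.4% of all genes did (20.3% higher, 24.2% lower). The median difference of the 9 genes was -0.09 in R216Q, -0.07 in R216W, -0.09 in D218G and -0.28 in D218Y, where the median over all genes was -0.01, -0.02, -0.02 and -0.07. By line mean the 9 genes lay at percentiles 70.5 to 99.7 of all genes, so the shares over all genes cover many dimmer genes.

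Different changes at the same residue were then compared. D218Y differed from D218G in 7 of the 9 genes, against 33.0% of all genes (17.4% higher, 15.6% lower): Bnip3 was higher by 0.97 ± 0.12, and Bnip3l, Calcoco1, Map1lc3b, Gabarapl2, Sqstm1 and Foxo3 were lower by 0.19 (Foxo3) to 0.80 (Calcoco1), Gabarapl2 only by the probe set used. R216W differed from R216Q in 4 of the 9, against 16.9% of all genes (8.25% higher, 8.65% lower). Calcoco1 (0.16 ± 0.05), Gabarapl2 and Sqstm1 (both 0.19 ± 0.03) were higher and Gabarapl1 lower (-0.13 ± 0.04) in R216W. The Calcoco1 and Gabarapl1 differences were lost without single arrays (limma adjusted p up to 0.121 and 0.114), that of Gabarapl2 with its other probe set (0.244), and 2 of the 9 genes remained without replicate 2 of R216W. Across residues, D218G differed from R216Q in 3 genes, Ulk1 and Map1lc3b higher and Bnip3 lower (13.4% of all genes; 6.87% higher, 6.52% lower). It differed from R216W in 4, with Ulk1 higher and Bnip3, Gabarapl2 and Sqstm1 lower (22.0% of all genes; 11.3% higher, 10.7% lower), and in 7 when genes above the median intensity alone were tested or with a trend in eBayes. D218Y differed from R216Q in 7, Ulk1 higher and 6 lower (31.8% of all genes; 16.5% higher, 15.4% lower). It differed from R216W in 7, again with Ulk1 higher and 6 lower (36.3% of all genes; 18.8% higher, 17.5% lower). The Gabarapl2 call was lost with its other probe set in 3 of these comparisons: D218Y minus R216Q went from -0.36 to -0.09 (limma adjusted p = 0.681), D218Y minus R216W from -0.55 to -0.42 (0.0577) and D218G minus R216W from -0.22 to -0.44 (0.075).

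Within the 15 arrays the genes fell into patterns. Bnip3l, Calcoco1, Gabarapl2, Sqstm1, Map1lc3b and Foxo3 correlated with each other at Pearson's r of 0.72 to 0.96, whereas Ulk1 had r between -0.38 and 0.35 with the genes other than Bnip3. Bnip3 correlated negatively with all 8 others, from -0.23 with Sqstm1 to -0.76 with Map1lc3b. These r describe 5 lines of 3 arrays each, so they largely repeat the line means. Among 3144 other genes whose line means spanned at least 0.5, the genes most like Bnip3 over the 15 arrays were Dlc1 (r = 0.974), the glycolytic enzyme gene Pgk1 (0.967) and the interferon gamma receptor gene Ifngr2 (0.962). Those most like Calcoco1 were Cnppd1, Abtb1 and the potassium channel gene Kcnn4 (all 0.993). Map1lc3b was closest to Cdca3 (0.990), Gse1 (0.986) and Abhd4 (0.984), and Gabarapl2 to Herc1 (0.996), Syne3 (0.994) and Dctn6 (0.994).

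A wider list of 87 autophagy genes, 85 of them measured, gave the setting. In R216Q 16 rose and 28 fell (51.8% called, against 21.5% of all genes), in R216W 16 rose and 26 fell (49.4% against 16.6%), in D218G 9 rose and 21 fell (35.3% against 18.1%) and in D218Y 19 rose and 43 fell (72.9% against 44.4%). The medians were -0.05, -0.04, -0.04 and -0.11, where all genes had -0.01, -0.02, -0.02 and -0.07. No test of the list as a whole was made, and it includes the 9 genes. It was drawn up with earlier results of these data known. Shares over all genes, here and elsewhere, include dim genes, whereas most of the listed genes lay above the median gene. No share among genes of like brightness was computed.

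**Figure D4:**
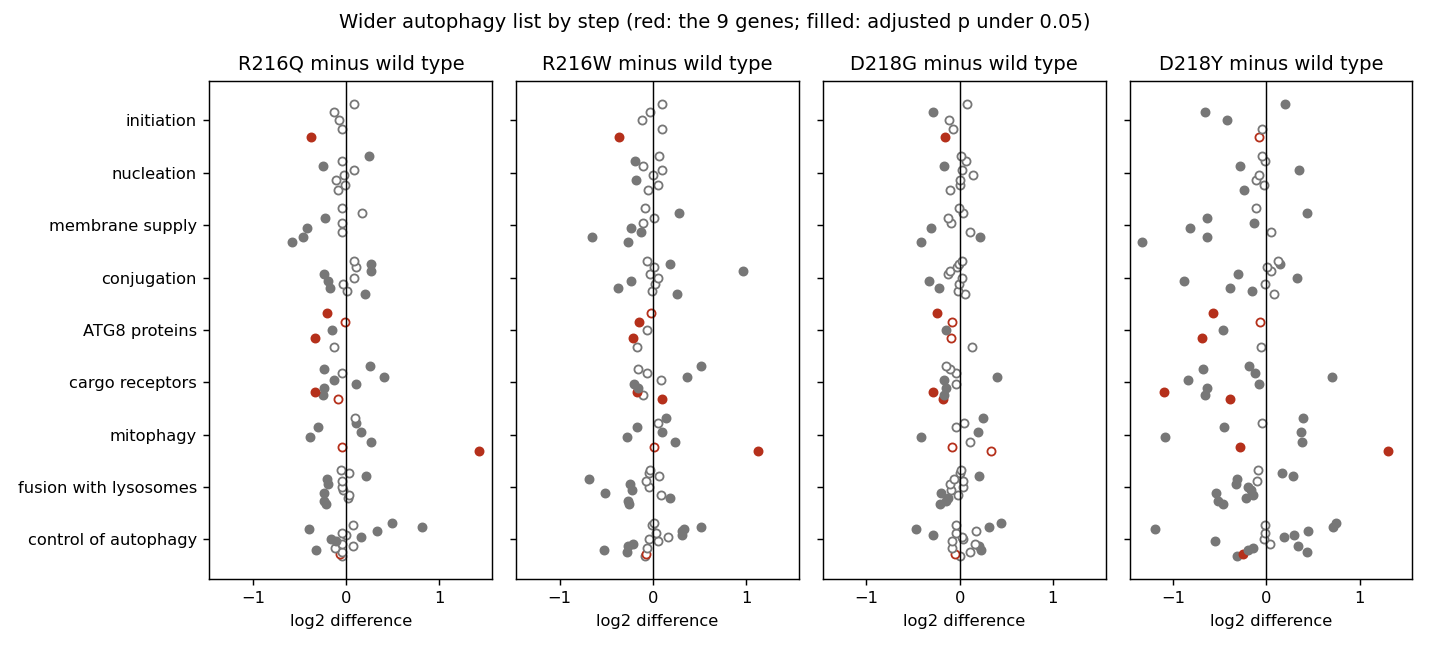
Log2 difference from wild type in each mutant line for 85 measured genes of the wider list, 1 point a gene, in rows by step of autophagy; the 9 genes are red, and filled points passed limma's test at 0.05 after adjustment. Falls outnumber rises in each line, at 43 against 19 in D218Y, and Bnip3 is the rightmost point in R216Q, R216W and D218Y.

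By step, cargo receptors (9 of 10) and genes for fusion with lysosomes (9 of 13) had the most falls for their number in D218Y, where 24.2% of all genes were lower and 20.3% higher; the counts of each step below stand against these shares. Of 5 ATG8 genes 3 fell in D218Y, with Gabarap at -0.47 ± 0.03 beside Map1lc3b and Gabarapl2, and none rose. All 10 measured genes of the cargo receptor group, which also holds the kinase gene Tbk1, changed there, 9 lower and 1, Tex264, higher (0.70 ± 0.05). Those lower included Ncoa4, the receptor that delivers ferritin for iron release (-0.84 ± 0.04), Nbr1 (-0.66 ± 0.04) and Tax1bp1 (-0.64 ± 0.04). Smaller falls were those of Tollip (10.25 against 10.33 in wild type) and Retreg1 (4.75 against 4.87). Retreg1 was dim, at percentile 17.6 of all genes in D218Y, and did not pass the F test (limma adjusted p = 0.278). Genes that bring membrane to the autophagosome fell in 5 of 8 cases in D218Y and rose in 1, and Atg9a, the lipid scramblase of the starting vesicles, had the largest fall in the list (-1.33 ± 0.04, limma adjusted p = 7.27e-13). Of the 13 fusion genes 2 rose. Of 8 measured mitophagy genes 4 rose and 3 fell in D218Y. Pink1, the kinase that flags damaged mitochondria, fell by 1.09 ± 0.05, while Fundc1, another receptor on mitochondria (0.38 ± 0.06), Phb2 (0.37 ± 0.03) and Usp30, a deubiquitinase that opposes mitophagy (0.39 ± 0.04), rose with Bnip3. Of 17 control genes 7 rose and 6 fell, against 20.3% higher and 24.2% lower over all genes.

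In R216Q Sesn2, a stress-induced inhibitor of mTORC1 signalling, rose by 0.81 ± 0.05, Rubcn, the autophagy inhibitor Rubicon, by 0.49 ± 0.04, Tex264 by 0.41 ± 0.05 and Ddit4 by 0.33 ± 0.06. The largest falls there were Atg9a (-0.58 ± 0.04), Atg2a (-0.46 ± 0.04), Wipi1 (-0.42 ± 0.06) and Sesn1 (-0.40 ± 0.04). In R216W Atg10, a conjugating enzyme, rose by 0.97 ± 0.07, Tbk1, a kinase of cargo receptors, by 0.52 ± 0.06, Sesn2 by 0.52 ± 0.05 and Tex264 by 0.37 ± 0.05. Vps18 (-0.69 ± 0.06), Atg2a (-0.65 ± 0.04), Tfe3 (-0.52 ± 0.04) and Plekhm1 (-0.51 ± 0.04) had the largest falls in R216W. In D218G Rubcn (0.44 ± 0.04), Tex264 (0.40 ± 0.05), Sesn2 (0.32 ± 0.05) and Usp30 (0.25 ± 0.04) rose most, and Sesn1 (-0.47 ± 0.04), Atg9a (-0.42 ± 0.04), Pink1 (-0.41 ± 0.05) and Atg4d (-0.33 ± 0.04) fell most. In D218Y the largest rises outside the 9 genes were Rubcn (0.75 ± 0.04), Sesn2 (0.71 ± 0.05), Tex264 and Ddit4 (0.45 ± 0.06), and the largest falls after Atg9a were Sesn1 (-1.20 ± 0.04), Pink1 and Atg4d, a protease that processes ATG8 proteins (-0.88 ± 0.04). Each of these values had an adjusted p under 0.05 in limma, from 7.27e-13 to 0.00157.

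Of the lysosome and autophagy transcription factors, Tfeb rose in D218Y (0.44 ± 0.06) and fell in R216W (-0.28 ± 0.06), while Tfe3 fell in R216Q (-0.32 ± 0.04), R216W and D218Y (-0.20 ± 0.04) and rose in D218G (0.23 ± 0.04). Of the other 4 genes of the starting group, Rb1cc1 (FIP200) fell in D218Y by 0.66 ± 0.07 and in D218G by 0.29 ± 0.07, and Atg13 fell in D218Y by 0.42 ± 0.05. Atg101 rose in D218Y (0.20 ± 0.06, limma adjusted p = 0.0154), and Ulk2 lay between -0.07 and 0.10 over the 4 lines, with no call. In D218G Ulk1 and Rb1cc1 both fell. In R216Q and R216W, where Ulk1 fell, Rb1cc1 was at -0.13 ± 0.07 and -0.03 ± 0.07 and Atg13 at -0.08 ± 0.05 and -0.12 ± 0.05, none past the threshold; Atg101 and Ulk2 did not pass there either. Tfeb, Rb1cc1, Atg13, Atg101, Ulk2, Gabarap, Ncoa4, Nbr1, Tax1bp1, Fundc1 and Phb2, Usp30 in D218Y and Tfe3 outside R216W were picked out after their values were seen.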

How the data were processed

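RNA from 15 samples was measured on Affymetrix mouse arrays. The authors deposited a table on a log2 scale with a column for each array. Partek 6.6 and RMA are named in the submitters' processing notes. RMA corrects background, normalizes by quantiles and summarises probes; it makes array distributions alike and compresses changes of dim genes. No source used here gives settings, build or scan batches. Arrays carry no counts, so their number limits the precision.

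The values were used unchanged, with no filter. Of 28350 probe sets 21780 had 1 gene symbol, 1618 several and 4952 none listed; taking the highest mean per gene gave 19933 genes. Groups and replicate numbers came from titles. limma 3.58.1 in R 4.3.3 fitted 1 mean per line over 15 arrays, with 10 pairwise contrasts, an F test, eBayes and Benjamini-Hochberg adjustment over all genes within a contrast; calls are at 0.05, two-sided. Errors are moderated standard errors, and intervals are 95%. The fit was tested on simulated data. The tests reflect the spread of 3 replicates within a line, and line and mutation cannot be told apart.

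Named were the 9 genes, up to 4 rises and 4 falls per line of the wider list without overlap with wild type, and the 3 genes most like a gene spanning at least 0.5. The genes and lists were chosen with earlier results of these data known. Alternatives were 2 renormalizations (quantile, cyclic loess), testing brighter genes alone, 2 lines' arrays alone, eBayes with trend, a replicate block, mean or other probe sets, a 0.01 threshold and each array left out. Background correction could not be varied from these values.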

Additional observations from a re-analysis of the deposited data

How the results depend on the processing

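Of 22 differences of a gene from wild type that passed, 17 passed under all alternatives run for single genes, and 5 were lost under at least 1: Calcoco1, Gabarapl1 and Sqstm1 in R216W, Ulk1 in D218G, and Gabarapl2 in R216Q (the last with its other probe set alone). Of 14 that did not pass, 5 did under some alternative. At an adjusted p under 0.01 the count of the 9 genes was 3 (from 6) in R216W against wild type and 2 (from 4) in R216W against R216Q. Without single arrays that last count ran from 2 to 4. For D218G against R216W the count was 7 (from 4) with genes above the median intensity alone, and 7 with a trend in eBayes. The share of all genes under these settings is not given here. D218Y minus D218G for Gabarapl2 turned from -0.33 to 0.02 with the other probe set. Values near 0 changed sign without passing: Gabarapl1 was at 0.00 in R216Q against wild type after quantile normalization and at -0.00 in D218Y against D218G after cyclic loess. With single arrays left out Gabarapl1 ran from -0.04 to 0.00 and from -0.02 to 0.03 in these comparisons, and Bnip3l in R216W against wild type from -0.01 to 0.02. Foxo3 ran from -0.04 to 0.02 for R216W minus R216Q, from -0.02 to 0.03 for D218G minus R216Q and from -0.01 to 0.04 for D218G minus R216W.

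Replicate numbers did not pair the arrays: 3 of 30 same-numbered pairs of arrays had a correlation of deviations above 0.1 (median -0.02, highest 0.41), and 2 of 15 arrays correlated best with their own number. Of 60 differently numbered pairs from different lines, 16 were above 0.1 (median 0.01, highest 0.54). What such arrays share was not tested. With the replicate number as a block 5, 5, 4 and 7 of the 9 genes passed in R216Q, R216W, D218G and D218Y, 8 of 9 passed the F test, and the rise of Sqstm1 in R216W was lost (limma adjusted p = 0.0675; range over all alternatives 0.00162 to 0.113). In the wider list the block gave 40, 39, 28 and 60. The share of all genes that passed with the block is not given here, so these counts have no background beside them. With 3 arrays a line, differences smaller than these intervals resolve were not detectable.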
